A study of Mus musculus with 6 samples.

Results

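The fragile X family consists of 3 genes, Fmr1, Fxr1 and Fxr2, out of the 13932 genes measured. They were found by name in both deposited tables, and 65 of the 151811 splice junctions belonged to them (23 in Fmr1, 24 in Fxr1 and 18 in Fxr2). The family was picked because a coding exon of Fmr1 was already known to differ in these libraries, so the values of S34F against WT below are a description of the members and not evidence for their choice. No numeric threshold entered the choice.

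The cells were common myeloid progenitors, sorted from bone marrow as lineage-negative, c-Kit+, Sca-1-, CD34+ and Fc-gamma-receptor-negative cells. In the S34F group the mice had received marrow with the U2AF1(S34F)/rtTA genotype, and in the WT group marrow with the U2AF1(WT)/rtTA genotype. Both groups carried the rtTA transactivator and a U2AF1 transgene, and both were fed doxycycline chow for 5 days to switch the transgene on, more than 6 weeks after transplantation. Each genotype had 3 libraries, and each library was a pool of marrow from 4 to 5 mice; whether pools shared a marrow donor is not given. No library lacked the transgene or doxycycline, and the counts do not separate transgene from endogenous reads. U2af1 stood at 119, 136 and 122 CPM (counts scaled to a common library size) in S34F and at 105, 125 and 128 CPM in WT.

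The 3 proteins, FMRP, FXR1P and FXR2P, bind RNA through KH domains and an arginine- and glycine-rich region, associate with ribosomes and with each other, and hold many messages back from translation. Loss of FMRP, encoded on the X chromosome, causes fragile X syndrome, and the family is studied most in neurons, although blood cells express it too. U2AF1 reads the AG that ends an intron, and the S34F substitution, found in myelodysplastic syndromes, lies in a zinc finger of the protein. The transcripts of all 3 genes are spliced in several forms, and in Fmr1 the exons 12, 14 and 15 are among the known variable ones. Exon 12 lengthens a loop of the second KH domain, exon 14 carries the nuclear export signal, and exon 15 begins with alternative acceptors just upstream of the arginine- and glycine-rich region.

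On the build mm9, Fmr1 (ENSMUSG00000000838) lies on the plus strand at chrX:65931716-65971138, Fxr1 (ENSMUSG00000027680) on the plus strand at chr3:33919001-33968264, and Fxr2 (ENSMUSG00000018765) on the plus strand at chr11:69446492-69466799. Each has 17 exons in its main annotated coding transcript, which sets the exon numbers used here. Fxr1 shares 178 of its 2413 exonic bases with Dnajc19 on the other strand, and whether the authors' counting used strand is not given in the sources used here, so reads from that stretch cannot be told apart. Dnajc19 averaged 28.3 ± 1.20 CPM with S34F, below its WT mean of 33.3 ± 4.35 CPM (SD, n = 3 each), and far less than Fxr1 in both. SNORA25 lies within Fmr1 and Mir467f within Fxr2, both on the minus strand.

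The results turn on 2 coding exons of Fmr1, which are shown with 20 intron bases on each side, read 5′ to 3′ from the mm9 genome, with the exon in capitals. Exon 12 is the 63-nt exon at chrX:65959036-65959098 and keeps the reading frame. Exon 14 is the 196-nt exon at chrX:65963759-65963954 and does not.
Fmr1 exon 12: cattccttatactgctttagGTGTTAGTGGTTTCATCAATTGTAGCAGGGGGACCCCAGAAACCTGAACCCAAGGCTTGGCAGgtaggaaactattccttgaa
Fmr1 exon 14: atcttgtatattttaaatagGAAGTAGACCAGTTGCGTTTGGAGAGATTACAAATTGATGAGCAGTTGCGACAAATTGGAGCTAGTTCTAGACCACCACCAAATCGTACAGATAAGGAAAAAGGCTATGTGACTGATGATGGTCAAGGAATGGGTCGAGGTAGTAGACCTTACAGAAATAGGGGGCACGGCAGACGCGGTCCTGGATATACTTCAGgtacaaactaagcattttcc

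The acceptors of the family's cassette exons, of Fmr1 exon 13 and of Fmr1 exon 15 are shown as 20 intron bases followed by 10 exon bases. Capitals mark the last 3 bases of the intron, of which the first, at position -3, stands just before the AG that U2AF1 reads.
Fmr1 exon 12 acceptor: cattccttatactgcttTAGgtgttagtgg
Fmr1 exon 13 acceptor: tgttacaatttctttttCAGggtatggtac
Fmr1 exon 14 acceptor: atcttgtatattttaaaTAGgaagtagacc
Fmr1 exon 15, the first acceptor: taacttttaactctcgaTAGgaactaattc
Fmr1 exon 15, the second acceptor: atcaaatgcttctgaaaCAGaatctgacca
Fmr1 exon 15, the third acceptor: actcagtgattggtcatTAGctccaacaga
Fxr1 exon 15 acceptor: ggtaaactttgcaattaCAGatgatagtga
Fxr1 exon 16 acceptor: ttttttctcatctttaaCAGtcacagttgc
Fxr2 unannotated exon acceptor: taaacttcatttcttgcCAGgtggtgatgg

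The libraries differed in depth: total gene counts ranged from 46827909 to 51862032 in S34F and from 54727541 to 94562984 in WT, so every S34F library was shallower than every WT library. Both replicate 1 libraries carried the Y-linked gene Ddx3y (5714 counts in S34F and 5580 in WT) and almost no Xist, while the other 4 libraries carried no Ddx3y, so by these genes the cells of replicate 1 were male and those of replicates 2 and 3 female. This matters for Fmr1 as an X-linked gene, and its values are given within each sex below. Of the 4 sort markers, Cd34 and Kit were abundant in every library (at least 695 and 92.4 CPM) and Ly6a, the gene of Sca-1, was at most 1.84 CPM, whereas Fcgr3 reached 111 CPM in WT replicate 2. None of the 4 was called by either test. The 12 dendritic cell markers summed to between 293 and 472 CPM in S34F and between 565 and 727 CPM in WT, and none was at 0. Flt3 was the largest part of each sum, at 362, 239 and 344 CPM in S34F and 332, 372 and 327 CPM in WT, which overlapped. Cd74 had 97.4 CPM in WT replicate 1, against 9.89 and 20.2 CPM in WT replicates 2 and 3. By log2 fold change 1 of the 12 lay above 0 and 11 below, beside 49.1% above 0 over all genes. DESeq2 called 7 of them lower, against 0.689% of all genes called in either direction, and edgeR called 0. These were the class II antigen presentation genes H2-Aa, H2-Ab1, H2-Eb1 and Ciita and the dendritic cell genes Clec9a, Zbtb46 and Batf3, with fitted log2 fold changes between -2.71 and -1.74. H2-Aa had 18.5, 7.49 and 15.4 CPM in S34F, against 113, 63.0 and 94.5 CPM in WT, without overlap. Whether this moved any value of the fragile X genes was not tested. In pooled marrow cells, fewer cells of a type and less RNA per cell cannot be told apart.

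At the level of whole genes, Fmr1 and Fxr1 had higher means in S34F, Fxr2 had a lower one, and none of the 3 was called. Fmr1 had 90.0, 78.3 and 79.2 CPM in the S34F libraries 1 to 3, against 73.1, 63.1 and 57.9 CPM in the WT libraries. All 3 S34F libraries lay above all 3 WT libraries, with means of 82.5 ± 6.55 CPM in S34F, against 64.7 ± 7.72 CPM in WT (SD, n = 3 each), and a log2 fold change of 0.35 with a standard error of 0.12. The same order held within the male libraries, at 90.0 in S34F and 73.1 CPM in WT, and within the female ones.

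Fxr1, the family member that muscle and heart cannot do without in mice, had 162, 126 and 142 CPM in S34F, against 127, 118 and 100.2 CPM in WT. The groups overlapped, because S34F replicate 2 lay just under WT replicate 1, and the log2 fold change was 0.32 with a standard error of 0.13. Fxr2, the third member, had 87.5, 90.9 and 82.2 CPM in S34F, against 93.0, 94.5 and 96.4 CPM in WT. Here all S34F libraries lay below all WT libraries, by a log2 fold change of -0.12 with a standard error of 0.09.

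Neither tool called any of the 3 genes at an adjusted p under 0.05. Across all genes, edgeR's quasi-likelihood test called 0 of 13905 (0.0%) and DESeq2 called 96 of 13927 (0.689%). At an unadjusted p under 0.05, edgeR counted Fmr1 and Fxr1, against 1265 genes (9.1%) in the whole table. Complete separation of the groups, as in Fmr1 and Fxr2, was found upward in 7.16% and downward in 8.47% of all genes. Without WT replicate 1, edgeR called Fmr1, with a log2 fold change of 0.45, together with 1172 genes in all.

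The direction for Fmr1 depended on the unit, and so did the size of the difference in Fxr1 and Fxr2. In the authors' FPKM, which are per length, Fmr1 stood at 11.2, 9.63 and 11.9 in S34F, against 11.3, 10.02 and 12.997 in WT, so the groups overlapped and the S34F mean of 10.9 lay under the WT mean of 11.4. The FPKM of most genes were lower in S34F: the median log2 ratio over 9503 genes with an FPKM above 1 in every library was -0.33. The log2 ratio of mean FPKM was 0.005 for Fxr1 and -0.31 for Fxr2, against 0.32 and -0.12 in CPM. Relative to that median, the log2 ratio of FPKM was 0.26 for Fmr1, 0.34 for Fxr1 and 0.03 for Fxr2. Summed junction reads, scaled to the junction total of each library, were a further readout. On that scale Fmr1 stood at 88.5, 78.3 and 84.2 in S34F and 78.6, 53.5 and 52.9 in WT, which overlapped by the narrow margin of S34F replicate 2 and WT replicate 1.

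**Figure D1:**
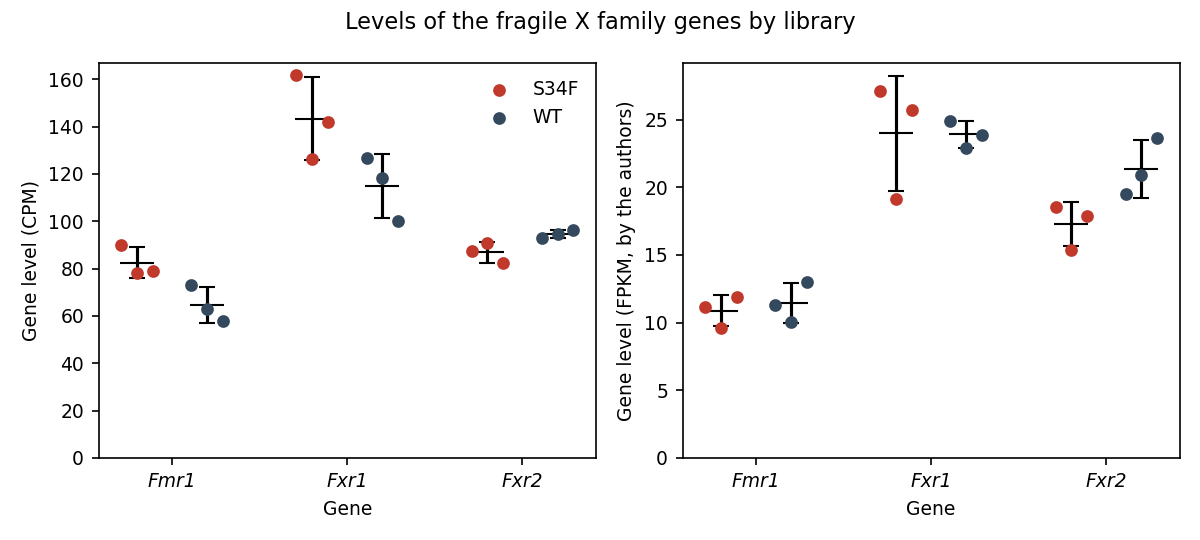
Levels of the 3 genes in each library, as CPM (left panel) and as the authors' FPKM (right panel), with S34F left of WT in each pair. Points are libraries, the horizontal bar is the mean and the whiskers are 1 SD (n = 3). Fmr1 separates the genotypes in CPM (means 82.5 in S34F and 64.7 in WT) but not in FPKM (10.9 in S34F and 11.4 in WT).

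Per length, the 3 genes kept the same order in 6 of 6 libraries: Fxr1 first, Fxr2 next and Fmr1 last. Fxr1 averaged 24.0 FPKM in S34F and 23.9 in WT, Fxr2 17.3 in S34F and 21.4 in WT, and Fmr1 10.9 in S34F and 11.4 in WT. Over the 6 libraries the ratio of Fxr1 to Fmr1 was 2.14 on average (1.84 to 2.43), that of Fxr2 to Fmr1 was 1.72 (1.51 to 2.09) and that of Fxr1 to Fxr2 was 1.24 (1.01 to 1.47). Each of these 3 ratios gave p = 0.03125 in an exact two-sided sign-flip permutation test over the 6 libraries, also after adjustment over the 3, which is the smallest p that 6 libraries allow. The margin between Fxr1 and Fxr2 was narrow in some libraries, down to a ratio of 1.01. CPM per kilobase of annotated exon gave the same order with wider gaps, with a ratio of 6.52 for Fxr1 to Fmr1.

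Splicing was read from junction counts. A cassette exon's inclusion is the average of the reads entering and leaving it, as a percent of that average plus the reads that skip it. The family had 5 cassette exons, and all 5 passed the minimum of 20 reads in every library, among 7210 exons in the whole table. They fell into 2 kinds. In both exons of Fmr1 the S34F libraries all lay under the WT libraries, and the 3 exons of Fxr1 and Fxr2 overlapped between the genotypes.

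Fmr1 exon 12, the first of the exons printed above, was included at 29.1%, 27.0% and 38.4% in S34F, against 51.2%, 51.9% and 52.4% in WT. The WT libraries lay close to each other, while S34F replicate 3 stood apart from the other two as the closest to WT. The means were 31.5 ± 6.09% in S34F and 51.8 ± 0.590% in WT (SD, n = 3 each), a difference of -20.3 points. Between 367 and 563 junction counts per library lay behind these shares, summed over both junctions of the exon and the skipping one.

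Both sides of the exon gave the same picture. They are not independent, because a read of 100 bp can span this 63-nt exon and count at both of its junctions. The reads that skipped exon 12, joining exon 11 to exon 13, numbered 234, 211 and 169 in S34F and 122, 137 and 176 in WT, although the WT libraries were deeper. Reads entering the exon numbered 96, 79 and 101 in S34F and 122, 167 and 209 in WT. Set against the mean of 11 constitutive Fmr1 junctions in the same library, the skipping junction stood at 0.882 ± 0.151 in S34F and 0.586 ± 0.0595 in WT. The junction into exon 12 stood at 0.395 ± 0.0282 in S34F and 0.671 ± 0.132 in WT. In the male pair inclusion was 29.1% in S34F and 51.2% in WT, and leaving both male libraries out gave a difference of -19.4 points.

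Fmr1 exon 14, the exon with the nuclear export signal, was included nearly always in WT. Its inclusion was 91.9%, 87.4% and 88.0% in S34F, against 99.4%, 97.8% and 99.2% in WT, with no overlap. Reads joining exon 13 to exon 15 numbered 15, 18 and 21 in S34F and 1, 3 and 1 in WT. As a share of the reads from exon 13 into exon 14 or past it, this was 4.90% (exact 95% interval 2.77 to 7.96%), 7.96% (4.79 to 12.3%) and 7.66% (4.81 to 11.5%) in S34F. In WT it was 0.337% (0.00852 to 1.86%), 1.17% (0.242 to 3.39%) and 0.498% (0.0126 to 2.74%). The intervals of S34F replicates 2 and 3 lay above every WT interval, and that of S34F replicate 1 overlapped that of WT replicate 2. Pooled, 54 of 806 such reads in S34F and 5 of 754 in WT skipped the exon, a ratio of 10.1 with a counting interval of 4.07 to 32.4, which covers counting error only.

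The size of the loss at exon 14 depended on which reads were set against the skipping ones, because the skipping reads join the third acceptor of exon 15. With only the reads to that acceptor as leaving the exon, the difference was -9.70 points. It was -6.17 points by the reads into the exon alone, -19.7 points by the reads out of it to that acceptor alone, and -7.02 points when reads out to every acceptor were counted. All S34F libraries lay below all WT libraries by each of these measures. The length of the exon is not a multiple of 3, so the 54 skipping reads join exons out of the frame that inclusion gives.

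**Figure D2:**
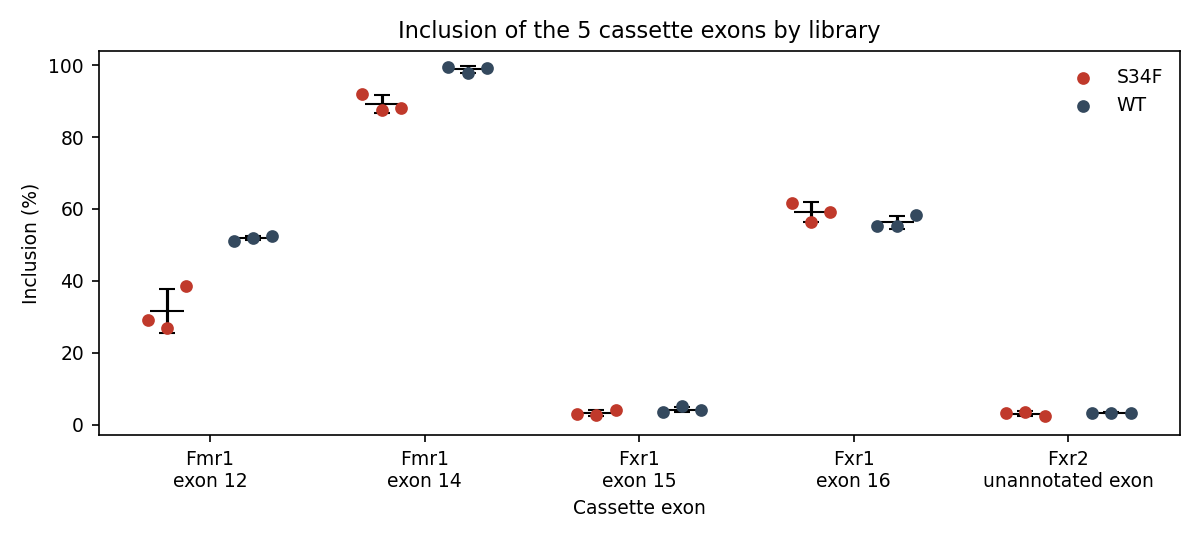
Inclusion in percent of the 5 cassette exons in each library, with S34F left of WT in each pair. Points are libraries, the horizontal bar is the mean and the whiskers are 1 SD (n = 3). Both Fmr1 exons lie lower in S34F (31.5% in S34F against 51.8% in WT for exon 12, and 89.1% in S34F against 98.8% in WT for exon 14), and the other 3 exons overlap.

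Called exons were counted across the whole table. DESeq2 called 2 of the 5 family exons at an adjusted p under 0.05, both of them in Fmr1 and lower in S34F, against 105 of 7210 exons (1.46%) in all and 76 (1.05%) lower. edgeR's quasi-likelihood test called 0 of the 5 and 2 of 7210 (0.0277%) in all; at an unadjusted p under 0.05 it counted both Fmr1 exons, against 782 (10.8%). The 2 exons that edgeR called overlap each other in Morf4l2, and this gene is named here after its values were seen. Complete separation below WT was found in 11.6% of all exons, and a difference of 10 points or more in either direction in 10.1%. A loss as large as that of Fmr1 exon 12 or larger was found in 47 exons of the table. Since the family was chosen on this contrast, its counts are given only beside those shares.

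The DESeq2 calls depended on which libraries were included. When a single library was left out, exon 12 was called only without S34F replicate 3, and exon 14 only without S34F replicate 1 or without WT replicate 2. Without S34F replicate 2, DESeq2 gave neither exon an adjusted p. Without both replicate 1 libraries neither was called. The difference itself stayed between -23.8 and -18.1 points for exon 12, and between -11.1 and -8.85 points for exon 14, whichever library was left out.

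The authors' deposited table holds its own test of each junction within its gene. In the authors' deposited table, 1 of the 65 family junctions passed an adjusted p of 0.05, against 512 of 150691 junctions (0.34%) in all. It was the junction from Fmr1 exon 13 to the third acceptor of exon 15, with a log2 fold change of 3.51 and an adjusted p of 0.00491 by the authors' deposited table. The junctions into exon 12 and past it followed, at log2 fold changes of -0.79 and 0.60 in the authors' deposited table, and did not pass.

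**Figure D3:**
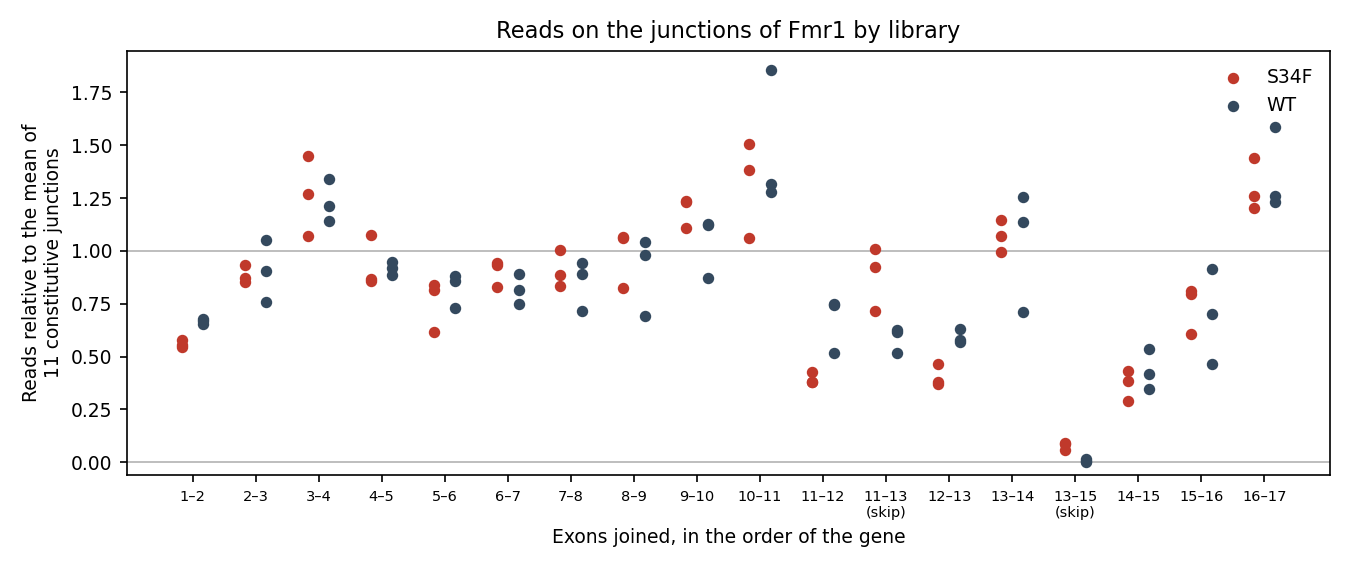
Reads on each Fmr1 junction relative to the mean of the 11 constitutive junctions of the same library, in the order of the gene, with S34F left of WT. Points are libraries (n = 3 per genotype), the junction marked 14–15 uses the first acceptor only, and that marked 13–15 the third. S34F lies below WT on both junctions of exon 12 and above WT on both skipping junctions.

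Most of the rest of Fmr1 did not separate the genotypes. Of its 16 junctions between neighbouring exons, 13 overlapped, among them the junction from exon 13 to exon 14, at 1.07 ± 0.0771 in S34F and 1.04 ± 0.287 in WT relative to the constitutive mean. Outside exon 12, the exception was the junction between exons 1 and 2, at 0.559 ± 0.0173 in S34F and 0.666 ± 0.0137 in WT. It lies next to the start of the gene and to a second acceptor that took 11, 6 and 8 reads in S34F and 6, 0 and 15 in WT. For this gene, and for Fxr1 and Fxr2 below, the share of all junctions that separate the genotypes on this scale was not computed.

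Exon 15 of Fmr1 begins at any of 3 acceptors, at position 65965406 and at 36 and 75 nt further on, each of which keeps the frame relative to the others. Its acceptors set how much of the exon's start, next to the arginine- and glycine-rich region, stays in the protein. The first acceptor took 50%, 42.7% and 51.0% of the reads leaving exon 14 in S34F, against 60.0%, 75.5% and 55.4% in WT. All S34F libraries lay below all WT libraries, though S34F replicate 3 came near WT replicate 3, and WT replicate 2 stood far above the other two. The second acceptor took 24.5%, 28.0% and 21.0% in S34F, against 17.1%, 10.8% and 15.0% in WT. Here all S34F libraries lay above all WT libraries. The third acceptor overlapped, at 27.6 ± 1.96% in S34F and 22.1 ± 7.96% in WT (SD, n = 3 each).

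The counts behind these shares were small, from 102 reads in WT replicate 2 to 213 in WT replicate 3. The family had 8 pairs of acceptors that share a donor, of which 4 passed the minimum of reads and of the rarer form. Both edgeR and DESeq2 called 0 of the 4, against 0 (0.0%) and 85 (1.48%) of 5731 pairs in the whole table, and at an unadjusted p under 0.05 edgeR counted 0 of the 4 against 407 (7.1%). The pair of the first and second acceptor showed the largest difference of the 4: the first took 66.1 ± 5.29% of their reads in S34F and 81.3 ± 5.37% in WT, without overlap, as in 9.34% of all pairs.

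**Figure D4:**
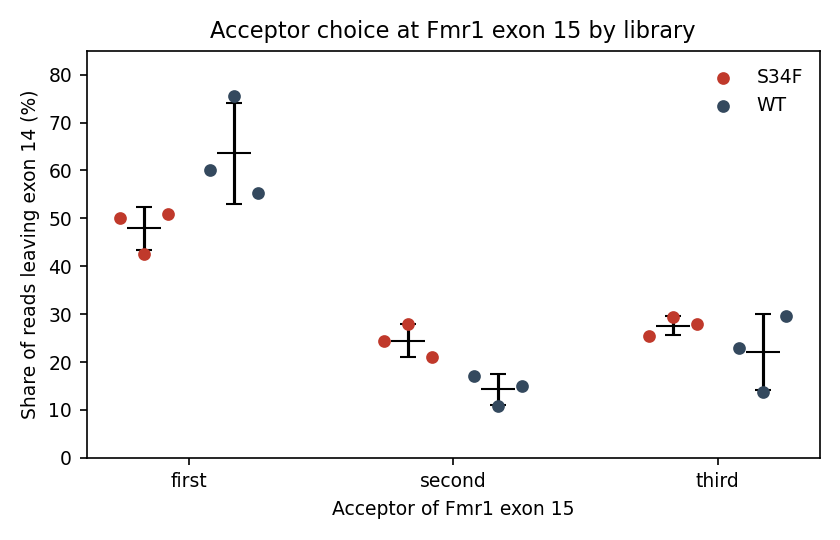
Share in percent of the reads leaving Fmr1 exon 14 that join each of the 3 acceptors of exon 15, with S34F left of WT. Points are libraries, the horizontal bar is the mean and the whiskers are 1 SD (n = 3). The first acceptor is used less in S34F (47.9% against 63.6% in WT), the second more (24.5% in S34F against 14.3% in WT), and the third overlaps.

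Fxr1 exon 16, a 92-nt coding exon at chr3:33967083-33967174 that shifts the frame of the protein's end, was included at 61.8%, 56.5% and 59.2% in S34F, against 55.2%, 55.3% and 58.4% in WT. The groups overlapped, with means of 59.1 ± 2.66% in S34F and 56.3 ± 1.80% in WT, a difference of 2.83 points. The junctions on both sides of it separated the genotypes, the one from exon 14 at 0.668 ± 0.0213 in S34F and 0.593 ± 0.0353 in WT relative to the gene's constitutive mean, but the junction that skips it did not, at 0.457 ± 0.0508 in S34F and 0.457 ± 0.0268 in WT. Without both replicate 1 libraries the difference in inclusion was 0.964 points. Its reads were the deepest of the 5 exons, at least 970 per library.

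Fxr1 exon 15, the 81-nt exon at chr3:33963896-33963976 that is known from the muscle forms of the protein, was rare in these progenitors. Its inclusion was 2.99%, 2.54% and 4.11% in S34F, against 3.47%, 5.04% and 4.02% in WT, and the groups overlapped. The reads into it numbered between 5 and 22 per library. A pair of Fxr1 acceptors, at positions 33960750 and 33960828, took their reads nearly all at the first, 96.7 ± 1.40% in S34F and 94.9 ± 1.30% in WT.

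Fxr2 had a single cassette exon, of 226 nt at chr11:69456872-69457097, which the annotation used here does not hold. It was included at 3.09%, 3.63% and 2.28% in S34F, against 3.12%, 3.35% and 3.27% in WT. Entering reads numbered 10, 0 and 0 in the S34F libraries, against 6, 4 and 1 in the WT libraries, so these shares rest almost wholly on the reads leaving it, 11, 18 and 12 in S34F and 14, 24 and 30 in WT. Of the 16 junctions between neighbouring Fxr2 exons, the 1 from exon 8 to exon 9 separated the genotypes, at 0.863 ± 0.0183 in S34F and 0.975 ± 0.0113 in WT relative to the gene's mean. How often junctions of other genes separate in this way was not computed.

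The printed acceptors fall into 2 sets by the base at position -3. The 2 exons of Fmr1 with less inclusion in S34F both have T there, and so has the first acceptor of exon 15, which took a smaller share in S34F. The second acceptor of exon 15, with a larger share in S34F, has C, as has exon 13 of Fmr1, which is joined when exon 12 is skipped. The third acceptor of exon 15 has T too. Its share of the reads leaving exon 14 overlapped between the groups, while the reads that joined it from exon 13, skipping exon 14, were more in every S34F library (15, 18 and 21) than in WT (1, 3 and 1). The cassette exons of Fxr1 and Fxr2, none of which separated the genotypes, all have C. The tested pair of Fxr1 acceptors, at positions 33960750 and 33960828, is not printed. Its first acceptor has A and its second has C, and its shares overlapped between the groups. Of the acceptors not printed, that of Fmr1 exon 2 has C. Relative to the constitutive mean, the junction into it was lower in every S34F library. The acceptors of Fmr1 exons 4, 6, 9 and 10 and of Fxr1 exons 5 to 8, 12 and 14 have T. On the same scale, their junctions from the neighbouring exon overlapped between the groups. In Fxr2, of the junctions into acceptors with T, only that into exon 9 separated, lower in S34F. The reading by base covers the 9 printed sites only, several of which compete for the same reads, and no test was made of it.

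For comparison, 32.8% of 7204 cassette exons in the whole table with an AG acceptor have T at that position and 57.9% have C. Another 8.38% have A. Their median difference in inclusion was -2.81 points with T, 0.37 points with C and 1.46 points with A. Of the 76 exons that DESeq2 called lower in S34F, 67 have T, 6 have C and 2 have A. Of the 29 called higher, 1 has T, 18 have C and 10 have A. T was found in all 3 genes: of all acceptors used by their junctions, 8 of 21 in Fmr1, 8 of 22 in Fxr1 and 8 of 17 in Fxr2 have T.

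**Figure D5:**
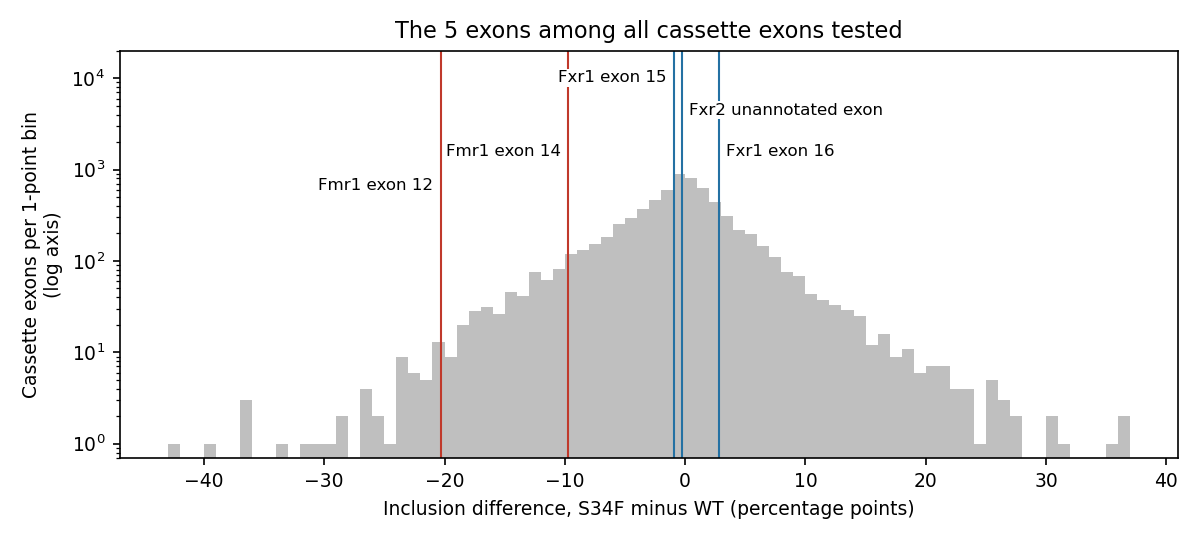
Difference in inclusion, S34F minus WT in percentage points, of all 7210 cassette exons (grey bars, 1-point bins, log axis), with the 2 Fmr1 exons as red lines and the 3 exons of Fxr1 and Fxr2 as blue lines. The median of all exons is -0.37 points with an interquartile range of -3.47 to 2.03 points; Fmr1 exon 12 lies at -20.3 and exon 14 at -9.70.

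Genes and exons with the most similar pattern over the 6 libraries were found by the root mean square difference of centred values. For the level of Fmr1 these were Rap1b, Hmmr and Zfp148, at differences of 0.01, 0.02 and 0.03 on the log2 CPM scale. For Fxr1 they were Lrrc49, Naa30 and Dnajc2, and for Fxr2 they were Tmem11, Snx27 and Numb. For inclusion of Fmr1 exon 12 they were exons of Mrpl15, Gm608 and Arhgap4, within 2.64 to 2.89 points. Inclusion of the Mrpl15 exon averaged 45.6% in S34F and 61.6% in WT, that of the Gm608 exon 81.5% in S34F and 98.5% in WT, and that of the Arhgap4 exon 56.4% in S34F and 73.7% in WT. The Arhgap4 exon is 63 nt long, as is Fmr1 exon 12, and lies on the X chromosome too. Exons of Dmxl1, Slc38a10 and Irak4 were nearest to Fxr1 exon 16, and exons of Eef2k, Uchl5 and Coro1a to the Fxr2 exon.

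The proteins that work with the family were expressed throughout. Of 21 partners and RNA granule proteins, all were measured, 15 had a fitted log2 fold change above 0 and 6 below, with a median of 0.14, beside 49.1% above 0 and a median of -0.01 over all genes; neither tool called any, and edgeR counted 1 at an unadjusted p under 0.05, beside 9.1% of all genes. The most abundant were Caprin1, an RNA granule protein that binds FMRP, at 1029.8 ± 49.2 CPM in S34F, against 891 ± 46.8 CPM in WT, and Ybx1, which coats messages, at 932 ± 23.6 CPM in S34F, against 846 ± 29.2 CPM in WT. The largest fold was that of Atxn2, a granule protein, at 17.7, 13.7 and 13.3 CPM in S34F, against 16.2, 8.84 and 8.43 CPM in WT, which overlapped. Cyfip1, which ties FMRP to actin control, stood at 125 CPM in each S34F library to within 1 CPM, and at 126, 139 and 149 CPM in WT.

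Of 10 microRNA silencing factors, with which FMRP associates, 8 had a log2 fold change above 0 and 2 below, with a median of 0.21, beside 49.1% above 0 over all genes. Neither tool called any, and edgeR counted 0 at an unadjusted p under 0.05, beside 9.1% of all genes. Tnrc6b and Dicer1 were the most abundant, at 151 ± 7.93 and 135 ± 5.88 CPM in S34F, against 115 ± 33.5 and 112 ± 25.2 CPM in WT. The largest fold was that of Tnrc6a, a scaffold of silencing, at 106, 87.3 and 98.7 CPM in S34F, against 96.7, 53.6 and 55.7 CPM in WT. In all 3 genes, WT replicate 1 lay near or within the S34F values and the other WT libraries below them.

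The next list of 13 genes held those of the WAVE complex, the actin regulator to which the Cyfip proteins belong. It also held Rac1 and Rac2, which are not subunits of the complex. Of the 13, 11 were measured. Among these, 9 had a log2 fold change above 0 and 2 below, with a median of 0.25, beside 49.1% above 0 over all genes. Neither tool called any, and edgeR counted 1 of the 11 at an unadjusted p under 0.05, the same share as the 9.1% of all genes. Nckap1l and Rac2 were the most abundant, at 284 ± 22.7 and 254 ± 24.1 CPM in S34F, against 215 ± 64.9 and 202 ± 69.0 CPM in WT. The largest fold was that of Wasf2, at 121, 83.5 and 113 CPM in S34F, against 132, 42.7 and 47.8 CPM in WT, where WT replicate 1 again stood apart from the other WT libraries.

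All 24 genes on a list of messages bound by FMRP in brain were measured. Of these, 19 had a log2 fold change above 0 and 5 below, with a median of 0.22, beside 49.1% above 0 over all genes. Neither tool called any, and edgeR counted 0 at an unadjusted p under 0.05, beside 9.1% of all genes. Huwe1 and Birc6, both ubiquitin ligases, were the most abundant, at 478 ± 51.9 and 412 ± 28.9 CPM in S34F, against 372 ± 155 and 370.2 ± 31.5 CPM in WT. Huwe1 stood at 528, 424 and 481 CPM in S34F, against 546, 251 and 319 CPM in WT, so WT replicate 1 stood apart here too. The largest fold, that of Mtap1b, rested on levels under 0.5 CPM in every library. None of the 5 neuron marker genes (Tubb3, Rbfox3, Snap25, Syt1 and Map2) was found by name in the gene counts, so they were not analysed. Some other listed genes stood there under older names, so this does not show that the 5 were unmeasured. Of 8 markers of mature lineages, 6 were measured, without Cd3e and Cd8a. All 6 had a log2 fold change below 0, beside 49.1% above 0 over all genes. Their summed levels were 43.8 to 68.9 CPM in S34F and 57.6 to 93.9 CPM in WT. Neither tool called any, and edgeR counted 1 at an unadjusted p under 0.05, beside 9.1% of all genes. Itgam, a myeloid integrin and the most abundant of them, had 40.0, 65.3 and 59.0 CPM in S34F, against 52.2, 87.8 and 69.2 CPM in WT, which overlapped. The pan-blood genes Ptprc and Cd48 summed to between 505 and 571 CPM in S34F and between 534 and 621 CPM in WT.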

How the data were processed

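RNA from 6 pools of sorted mouse common myeloid progenitors was depleted of ribosomal RNA and sequenced as stranded paired reads of 100 bp, per the labels' protocols. Reads were aligned to mm9 with TopHat 2.0.8, per the series text. The submitters' processing notes further list HTSeq 0.5.4p1, DESeq2 1.6.1, Bowtie2 2.1.0 and Cufflinks 2.1.1 without saying what each did, and no source states whether counting used strand. Raw, unnormalized counts per gene and per splice junction were deposited. Per the file headers, they also deposited FPKM per gene, fold changes as a ratio and on the log2 scale, p-values, a mean count per junction (a coverage signal), and a dispersion and test statistic (a score). Genotypes came from the sample titles and column names, because the genotype entry of the labels reads S34F for all 6 samples.

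Gene counts were tested with edgeR 4.0.16 in R 4.3.3 (TMM scaling, default expression filter, quasi-likelihood test) and, as an alternative, DESeq2 1.42.0, with Benjamini-Hochberg adjustment and a threshold of 0.05. CPM denotes counts after TMM scaling. The standard errors given for log2 fold changes are the absolute log2 fold change divided by the square root of edgeR's F statistic. Cassette exons of 10 to 1000 nt and acceptor pairs 3 to 500 nt apart were rebuilt from junction positions. Events with under 20 reads in any library, or with under 2% for the rarer form, were left out. Each event entered each tool as 2 counts per library. For a cassette exon, the inclusion count was the sum of the reads entering and leaving it. The model had a term per library, a term for the form and the tested interaction of genotype and form. Events of one gene can share reads. Replicates are separate pools of mice. All tests were two-sided, and all scripts that test many features were checked on simulated data. Positions are those of the first and last exon bases, counted from 1; at these positions 99.98% of 14954 checked introns began with GT and ended with AG in the reference genome of the same build. Exact intervals for shares have a level of 95% and cover counting error only. Depth differed by genotype, so shares in S34F rest on fewer reads.

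The members, the gene lists and the markers were chosen with earlier results of these data known. The text names the 3 members, each of their cassette exons and tested acceptor pairs, the 3 genes or exons nearest in pattern, and, from each list, called genes or else the 2 most abundant and the one of largest fold. One gene that this rule names is not reported here. The lists are family partners and RNA granule proteins, microRNA silencing factors, the WAVE complex with Rac1 and Rac2, and brain FMRP targets. Markers of the sort, lineages, blood, dendritic cells and neurons were listed too. Nearest patterns used log2 of CPM with 0.5 added. Other scalings, filters, read minimums, a replicate block and leaving out libraries were tried.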

Additional observations from a re-analysis of the deposited data

How the results depend on the processing

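The direction of every family value was kept under every alternative tried, with the following exceptions. The log2 ratio of Fmr1 in the authors' FPKM was -0.072, and it was 0.26 relative to the median over genes. The log2 ratio of Fxr2 in FPKM relative to that median was 0.03, against a log2 fold change of -0.12 in CPM. Without S34F replicate 3 the difference of the Fxr2 exon was 0.117 points in place of -0.24. Over the single libraries left out it ranged from -0.557 to 0.117 points. The cause was not tested for any of these. The log2 ratio of Fxr1 kept its direction in the authors' FPKM but was 0.005 there, against 0.32 in CPM. The number of genes called was 0 with edgeR, 96 with DESeq2, 5 with edgeR and a replicate block, 440 with DESeq2 and a replicate block, 599 without both replicate 1 libraries, and 0 to 1172 when a single library was left out, with 1172 without WT replicate 1 and 1 without S34F replicate 3. The number of cassette exons called was 2 with edgeR, 105 with DESeq2, 0 with no minimum share of the rarer form, 0 with a replicate block, 0 without both replicate 1 libraries and 0 to 1 when a single library was left out, where fewer samples entered. The number of acceptor pairs called was 0 with edgeR, 85 with DESeq2 and 0 to 3 when a single library was left out, with 3 without S34F replicate 1 and 2 without WT replicate 3. A minimum of 50 reads gave no value for the pair of the second and the third acceptor of Fmr1 exon 15. With a replicate block, no family gene was called by edgeR or DESeq2, and no family exon or acceptor pair by edgeR, as without it; DESeq2 with a block was not run on exons and acceptor pairs. Replicate numbers were not taken as pairs, because the labels give no shared origin. Across genes, the same-numbered libraries' deviations from their group means correlated at 0.19, 0.26 and 0.01 for replicates 1 to 3. Differently numbered libraries correlated at -0.27 to 0.07, so the values of replicates 1 and 2 lay above all of these. The replicate 1 libraries also shared their sex. Whether same-numbered libraries had a shared origin was not tested. For the order of the family genes, the log2 ratio with a single library left out ran from 1.06 to 1.15 for Fxr1 over Fmr1, from 0.73 to 0.82 for Fxr2 over Fmr1 and from 0.27 to 0.38 for Fxr1 over Fxr2, each at the smallest p that 5 libraries allow in the exact permutation test, 0.0625. Depth limits the shares at the acceptors of Fmr1 exon 15, from 102 reads in a library, and the exon-14 skipping reads in WT rest on 1 to 3 reads per library.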
